A study of Mus musculus with 6 samples.

Results

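The clustered protocadherins are cell surface adhesion proteins of the cadherin superfamily, encoded by the alpha, beta and gamma clusters that lie next to each other on mouse chromosome 18. Each alpha or gamma gene has its own promoter and its own large variable exon, which encodes the extracellular domains and is spliced to constant exons used by the whole cluster, while each beta gene is a unit of its own without constant exons. In neurons, where these genes are best known, a cell switches on a small set of promoters more or less at random, and the resulting combination of surface proteins helps a cell tell its own processes from those of other cells. The genes called C-type, *Pcdhac1*, *Pcdhac2*, *Pcdhgc3*, *Pcdhgc4* and *Pcdhgc5*, lie at the ends of the alpha and gamma clusters and are not subject to that random choice in neurons.

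The members were taken by gene symbol, as all genes of the alpha, beta, gamma A, gamma B and gamma C groups that have a row in the deposited expression table. This gave 40 of the 20624 genes, of which 18 belong to the beta group, 12 to gamma A, 7 to gamma B, 3 to gamma C and 0 to the alpha group. The study compared 3 samples of *Pkd1*-/- with 3 samples of wild type mDCT15, an untreated mouse cell line described as distal convoluted tubule, grown in medium with fetal bovine serum. *Pkd1* encodes polycystin-1, the protein most often affected in autosomal dominant polycystic kidney disease, and the mutant cells were made by CRISPR/Cas9 editing. The sample titles call these cells *Pkd1*-/-, while the genotype field of the labels calls them a knockdown, and whether they derive from 1 clone is not given in the sources used here.

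The value used for each gene is the authors' mean normalized count, the average over all 6 libraries of the reads assigned to that gene after each library was scaled for its size. It pools both genotypes, so the level in *Pkd1*-/- cells and the level in wild type cells were not analysed separately, no genotype difference was tested, and the spread between replicates and the depth of each library are unknown. A gene present at a high level in one genotype and missing from the other cannot be told apart from a gene present at a middling level in both. *Pkd1* itself had a mean normalized count of 3175, which pools the edited and the unedited cells and checks no label. Ratios of levels between genes are given only after division by the length of exon that belongs to the gene alone, as mean normalized count per kb of own exon. Means, sums of means and shares of these sums also depend on the length of each gene's exons.

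The cell type label was set against marker genes. Of 16 genes listed for the distal convoluted tubule and its neighbouring segment, 7 had a row in the table and 9 did not. *Slc12a3*, the thiazide-sensitive sodium chloride cotransporter that defines this segment, had no row, and neither did *Pvalb*, *Calb1*, *Fxyd2*, *Emx1*, *Sall3*, *Ppp1r1a*, *Tfap2b* and *Umod*. The listed ones ranged from 0.772 per kb of own exon for *Klhl3* to 359 per kb for the kinase gene *Wnk1*, with 78.0 per kb for the potassium channel gene *Kcnj16*. The defining marker of the labelled segment was thus absent from the table. Of 8 epithelial and kidney epithelial genes, 6 were listed, from 0.501 per kb for the keratin gene *Krt8* to 1125 per kb for *Cdh16*, while *Cdh1* and *Krt18* had no row. The neuronal markers *Rbfox3*, *Snap25* and *Stmn2* had no row, and the other 4 of the 7 neuronal genes ranged from 1.004 per kb for *Syp* to 135 per kb for *Tubb3*. Of the fibroblast markers, 5 of 6 were listed, from 0.214 per kb for *Col1a2* to 30.5 per kb for *Col1a1*, and *Lum* had no row. Of 3 endothelial markers, *Pecam1* had 0.468 per kb, and *Cdh5* and *Kdr* had no row. Of 3 immune markers, *Cd68* had 30.6 and *Ptprc* 0.286 per kb, and *Cd3e* had no row.

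The clustered protocadherins made up a small part of the assigned reads, and most of what was assigned to them came from *Pcdhgc3*. The summed mean normalized count of the 40 members was 1406, or 0.00839% of the sum over all genes, although they are 0.194% of the genes in the table. This sum holds little of the exon bases that the gamma genes share, since reads that fit more than 1 gene are by default not assigned. It is therefore not a share of the RNA. *Pcdhgc3* alone had a mean of 918, which is 65.3% of the members' sum, and the other 39 members together had 488. The median member had a mean of 6.199, against 104.5 for the median of all genes. A mean of at least 10 was reached by 15 of the 40 members, whereas 66.5% of all genes reached 10. At other minimum means, 37 members reached 1, 24 reached 5 and 1 reached 100, against 93.9%, 73.9% and 50.3% of all genes. At a minimum of 1 the members were thus close to all genes. Per kb of own exon, the median member stood at 2.00 and the median of the 19216 genes with a usable length at 31.1, and *Pcdhgc3* and *Pcdhgb2* were the 2 members above that median.

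The gamma C group holds the C-type genes of the gamma cluster, and its 3 genes differed widely in level. *Pcdhgc3* (ENSMUSG00000102918, plus strand of chromosome 18 from 37939416 to 37975014 in GRCm39) had 271 mean normalized counts per kb of own exon, at percentile 87.6 of all genes on that scale. Its direct neighbours *Pcdhgc4* and *Pcdhgc5* had 3.04 and 2.54 per kb. The level of *Pcdhgc3* was therefore 89.1 times that of *Pcdhgc4* and 107 times that of *Pcdhgc5* per kb. In the deposited units the means of *Pcdhgc4* and *Pcdhgc5* were 11.2 and 11.8. All 42-base windows in the own exon bases of these 3 genes occur at a single place in the genome, so reads of this length from them are not divided among copies. The gene BC037039, annotated on the opposite strand, covers 1560 of the 3381 own exon bases of *Pcdhgc3* and had a mean of 2.05.

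The gamma B group was led by *Pcdhgb2* (chromosome 18 from 37822866 to 37975014), with a mean of 86.8 and 31.2 per kb of own exon. This was 62.8% of the group's summed mean, and 63.1% when all 7 genes were taken per kb. *Pcdhgb7* and *Pcdhgb6* followed with means of 14.95 and 13.9, or 5.76 and 5.30 per kb, and the leading gene was 5.42 and 5.89 times above them on that scale. The order of *Pcdhgb7* and *Pcdhgb6* depended on how length was counted, with a ratio of 1.09 per kb of own exon and 0.955 per kb of windows found once in the genome. *Pcdhgb8*, *Pcdhgb4*, *Pcdhgb1* and *Pcdhgb5* lay between 1.15 and 2.82 per kb, with *Pcdhgb5* the lowest on this scale at a mean of 5.34. Every gene of the group was thus assigned reads, with the lowest mean at 3.66 for *Pcdhgb1*.

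The gamma A group had the same form with a smaller leading gene. *Pcdhga5* (chromosome 18 from 37827414 to 37975014) had a mean of 27.7 and 10.8 per kb of own exon, 32.9% of the group's sum in deposited units and 35.6% per kb. *Pcdhga12* and *Pcdhga11* came next with 2.39 and 2.38 per kb, so that *Pcdhga5* was 4.53 times above *Pcdhga12*. *Pcdhga6* and *Pcdhga4* were close behind with 2.32 and 2.22 per kb. The 11 genes other than *Pcdhga5* lay in a narrow band from 0.878 per kb for *Pcdhga2* to 2.39 per kb, with a median of 2.00. Their means ran from 2.31 to 10.8, the latter that of *Pcdhga12*. *Pcdhga10*, with a mean of 3.48, has all of its own exon bases covered by a gene on the opposite strand in the annotation used for lengths. Only if strand was not used in counting would a read there fit both genes and be left unassigned. The study's methods give default parameters, which use strand, and the setting was not tested.

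In genomic order the gamma A and gamma B genes are interspersed, and the leading genes of both groups, *Pcdhgb2* and *Pcdhga5*, are next to each other. The gene before them, *Pcdhga4*, had 2.22 per kb and the gene after them, *Pcdhga6*, had 2.32 per kb, so that *Pcdhgb2* stood 14.1 times and *Pcdhga5* 4.87 times above *Pcdhga4*. These ratios depend on the length of *Pcdhga4*, whose 1570 own exon bases are the fewest of the gamma genes. Per kb of whole exon, *Pcdhga4* had 0.724, *Pcdhgb2* 17.4, *Pcdhga5* 5.81 and *Pcdhga6* 1.26. Between the 2 leading genes the ratio was 2.89 in favour of *Pcdhgb2*. The variable exon of each gamma gene lies within the intron that follows the variable exons upstream of it, and the libraries were made from total RNA depleted of ribosomal RNA, so unspliced RNA of an upstream gene can add to the count of the genes downstream. How much it added was not tested. Across the 22 gamma genes, level per kb and place in the cluster had a Spearman rho of 0.55, and the rho was 0.54 for means without the C-type genes. The rho over means of all gamma genes was 0.60, but only 0.21 over the 16 with a mean of at least 5. The points share libraries, and genes are not replicates, so these are descriptions.

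**Figure D1:**
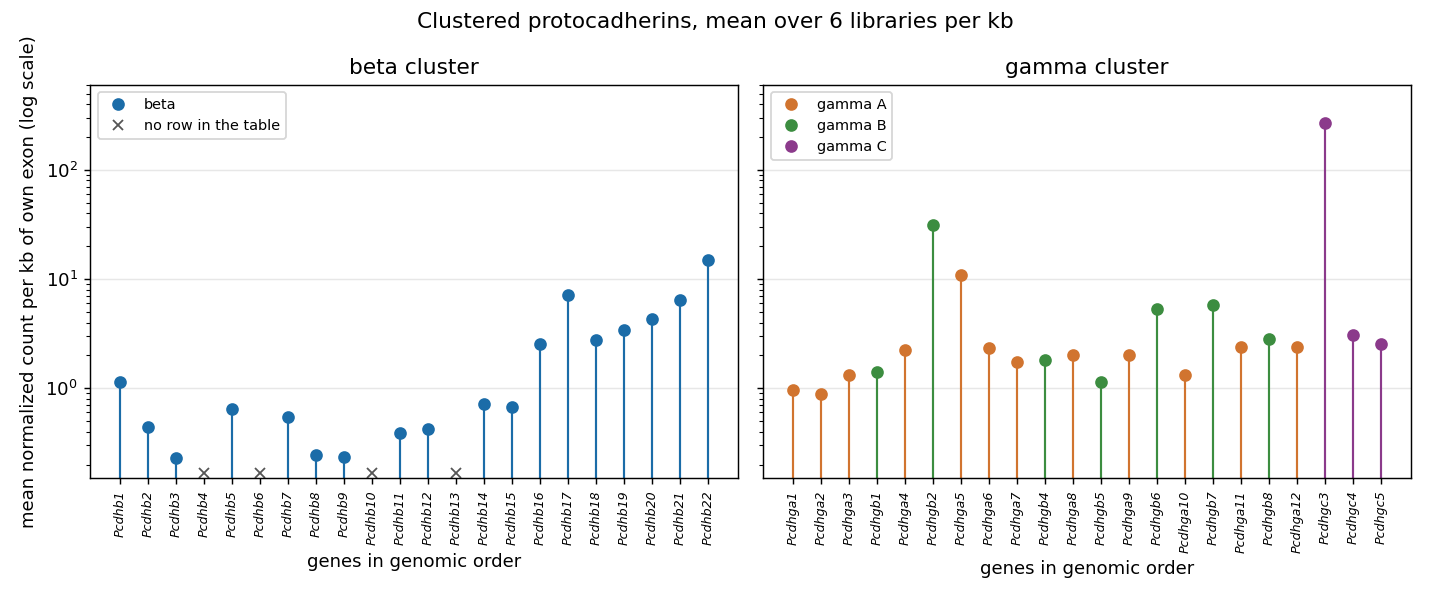
Mean normalized count per kb of own exon (log axis) of each beta gene (left) and gamma gene (right) in genomic order, 1 point a gene, averaged by the authors over 6 libraries of both genotypes, with crosses for beta genes without a row. The beta genes from *Pcdhb16* to *Pcdhb22* stand between 2.54 and 14.9998, above all earlier beta genes, and *Pcdhgc3* stands apart at 271.

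The beta genes were low at the start of the cluster and higher at its end. The 11 listed genes up to *Pcdhb15* lay between 0.229 per kb for *Pcdhb3* and 1.15 per kb for *Pcdhb1*, with a median of 0.444. The 7 genes from *Pcdhb16* to *Pcdhb22* lay between 2.54 and 14.9998 per kb, with a median of 4.34, and the ranges did not overlap. This boundary was set after the values were seen. *Pcdhb22* (chromosome 18 from 37650924 to 37657532), the last gene of the cluster, was the highest, with a mean of 92.3 and 14.9998 per kb. *Pcdhb17* with a mean of 33.6 and *Pcdhb21* with a mean of 27.4 followed at 7.20 and 6.45 per kb, so that *Pcdhb22* was 2.08 and 2.32 times above them.

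The other genes of the higher stretch, *Pcdhb20*, *Pcdhb19*, *Pcdhb18* and *Pcdhb16*, had means of 15.5, 24.2, 14.01 and 13.3. Over the 18 listed beta genes, level per kb and place in the cluster had a Spearman rho of 0.76. At the low end, *Pcdhb3*, *Pcdhb8* and *Pcdhb9* had means of 0.868, 0.848 and 0.878, which correspond to 5.21, 5.09 and 5.26 normalized reads over all 6 libraries together. The lowest mean of any gene in the table was 0.618. At so few reads the order among the early beta genes is not measured.

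**Figure D2:**
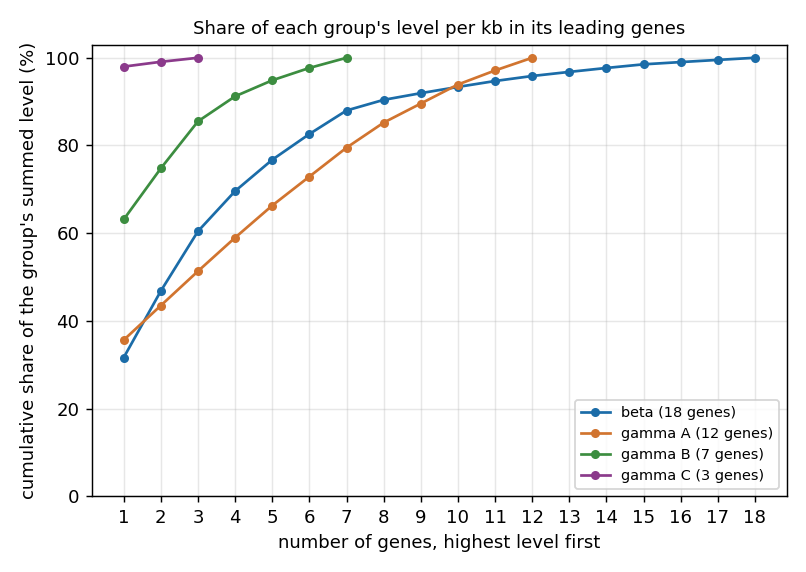
Cumulative share (%) of the summed mean normalized count per kb of own exon against the number of genes taken, highest first, for the beta, gamma A, gamma B and gamma C groups. The highest gene carries 31.6% of the beta, 35.6% of the gamma A, 63.1% of the gamma B and 98.0% of the gamma C level.

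The groups differed in how far 1 gene carried the level. The 3 highest genes held 60.4% of the beta, 51.3% of the gamma A and 85.5% of the gamma B level per kb. *Pcdhgc3*, *Pcdhgb2*, *Pcdhb22* and *Pcdhga5*, the highest gene of each group, together held 81.3% of the level per kb of all 40 members. Per kb, *Pcdhgc3* was 8.69 times above *Pcdhgb2*, 18.1 times above *Pcdhb22* and 25.1 times above *Pcdhga5*. As shares of the members' summed mean, gamma C held 66.9%, beta 17.2%, gamma B 9.83% and gamma A 6.001%.

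The alpha cluster has 15 annotated symbols that match the naming rule, counting the readthrough *Pcdha4b*, and none of them had a row in the table. Its C-type genes *Pcdhac1* and *Pcdhac2* were among them, in contrast to the 3 gamma C-type genes, which were all listed. Among the 22 annotated beta genes, *Pcdhb4*, *Pcdhb6*, *Pcdhb10* and *Pcdhb13* had no row. These 19 genes were not analysed further, since a gene without a row has no level here and is not shown to be silent.

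The exon structure sets what the counts can hold. Each gamma gene has exon bases of its own, from 1570 in *Pcdhga4* to 4662 in *Pcdhgc5*. Each also shares between 2116 and 3248 exon bases with 26 other annotated genes. *Pcdhga4* shares 3245, against 2210 in its neighbours *Pcdhgb2* and *Pcdhga5*, so more than the constant exons is shared there. The counting program used by the authors does not by default assign a read that fits more than 1 gene. The gamma values therefore rest mainly on the own part of the variable exons and hold little of the constant exons. The beta genes have no constant exons, and apart from *Pcdhb21* and *Pcdhb22*, which overlap each other, shared no exon bases on their strand. Within own exon bases, the share of 42-base windows that occur once in the genome was lowest for the alpha genes (67.8% for *Pcdha6*), whereas *Pcdhac1* and *Pcdhac2* were at 100%. It ranged from 81.1% to 95.7% in gamma B, from 94.4% to 100% in gamma A and from 84.7% to 100% in the beta group, so that a part of the reads of the closely related genes, *Pcdhgb2* among them at 81.7%, could fall at more than 1 place. The 4 beta genes without a row lay at 88.8% to 96.3%, inside the range of the listed beta genes. Windows were searched singly, while the reads were paired, so a read in a repeated window can still be placed by its mate. How many reads this covers was not tested.

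**Figure D3:**
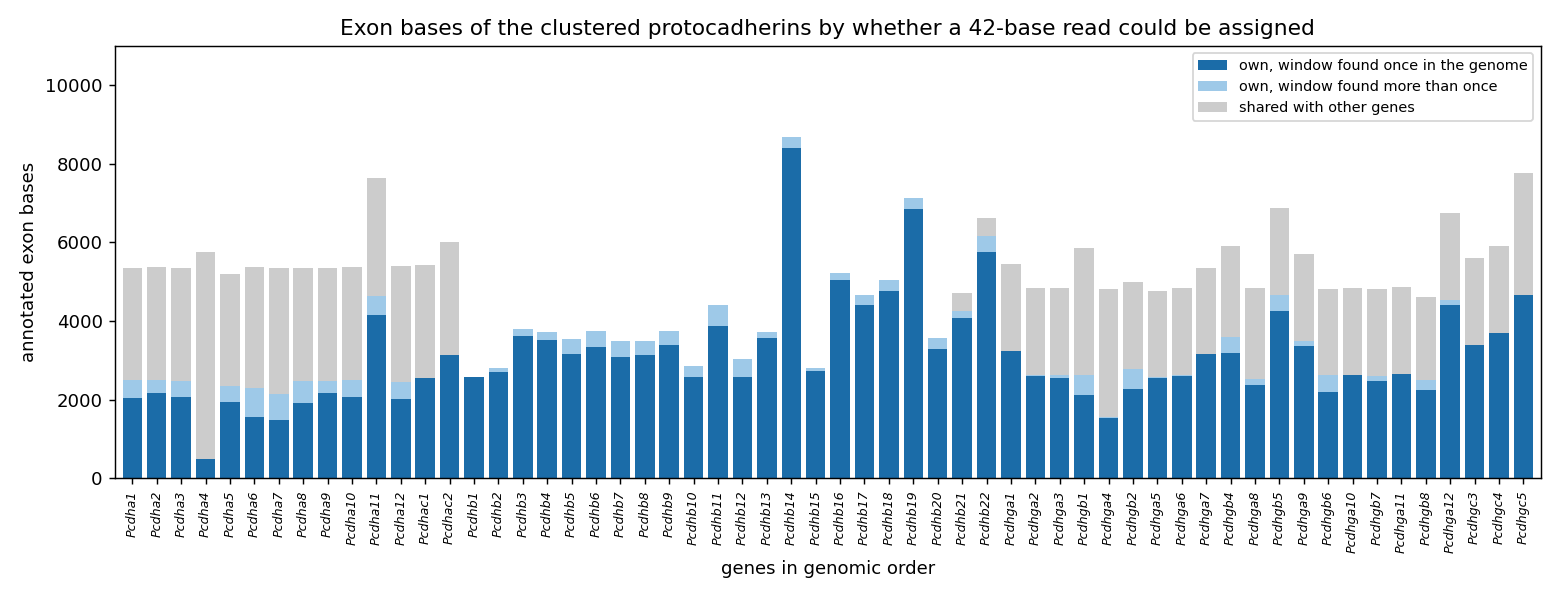
Annotated exon bases of each clustered protocadherin in genomic order, divided into own bases whose 42-base windows occur once in the genome, own bases whose windows occur more than once (both scaled from the share of windows) and bases shared with other genes on the same strand. The alpha and gamma genes carry shared bases throughout, and the beta genes almost none.

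Level per kb was also set against other properties of the own exon bases. In the beta group the Spearman rho was -0.37 with GC content, 0.36 with the share of windows found once and 0.45 with own exon length, over 18 genes. In the gamma cluster, over 22 genes, it was 0.38 with GC content, 0.011 with the share of windows found once and -0.11 with own exon length. These values describe genes from the same libraries.

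Other protocadherins lie outside the clusters as single genes. Of 12 such genes, *Pcdh7*, *Pcdh9*, *Pcdh11x*, *Pcdh12*, *Pcdh15* and *Pcdh20* had no row. The other 6 were listed, and their levels per kb spanned a wider range than those of the beta and gamma A genes. *Pcdh19*, an adhesion protein gene of the X chromosome, was the highest with a mean of 2790 and 265 per kb, close to the 271 per kb of *Pcdhgc3*. *Pcdh18* and *Pcdh1* had 71.2 and 39.1 per kb, above the clustered genes other than *Pcdhgc3*. *Pcdh17*, *Pcdh8* and *Pcdh10* had 0.484, 0.208 and 0.135 per kb, in or below the range of the early beta genes.

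The genes known to act on promoter choice in the clusters were all present. They include *Ctcf*, which binds the promoters and the distal enhancers, the cohesin genes, which bring these together in loops, and the genes of DNA methylation and of silencing. All 20 had a mean of at least 10, as did 66.5% of all genes, and their median was 243 per kb of own exon against 31.1 over all genes. *Rad21*, a cohesin subunit gene, was the highest with 2522 per kb, and *Ctcf* had 486. *Tet1*, which encodes an enzyme that oxidises methylated cytosine, was the lowest with 9.12 per kb, and *Dnmt3b*, the DNA methyltransferase gene tied to methylation of these promoters, had 25.7. *Smchd1*, a repressor of the clusters, had 207 per kb.

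All 14 genes for processing and signalling of the proteins were listed too, with a median of 175 per kb against the same 31.1. *Adam10*, whose protease cuts the extracellular part from the membrane, was the highest with 504 per kb. The kinase genes *Ptk2* and *Ptk2b*, whose products the intracellular part can bind, had 163 and 10.8 per kb. *Cyfip2*, a subunit gene of the WAVE complex for actin assembly, was the lowest with 2.17, and its relative *Cyfip1* had 187 per kb.

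The genes next to and between the clusters reached higher levels than most clustered genes. *Zmat2*, before the alpha cluster, had 225 per kb, *Diaph1*, just after the gamma cluster, 221 and *Hdac3*, after it, 343. *Taf7* and *Slc25a2*, which lie between the beta and gamma clusters, had 72.0 and 13.5 per kb. These genes were chosen for their place, after the levels of the members were seen. The level of *Slc25a2* was below that of *Pcdhb22* and *Pcdhgb2*, while *Taf7* was above both.

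**Figure D4:**
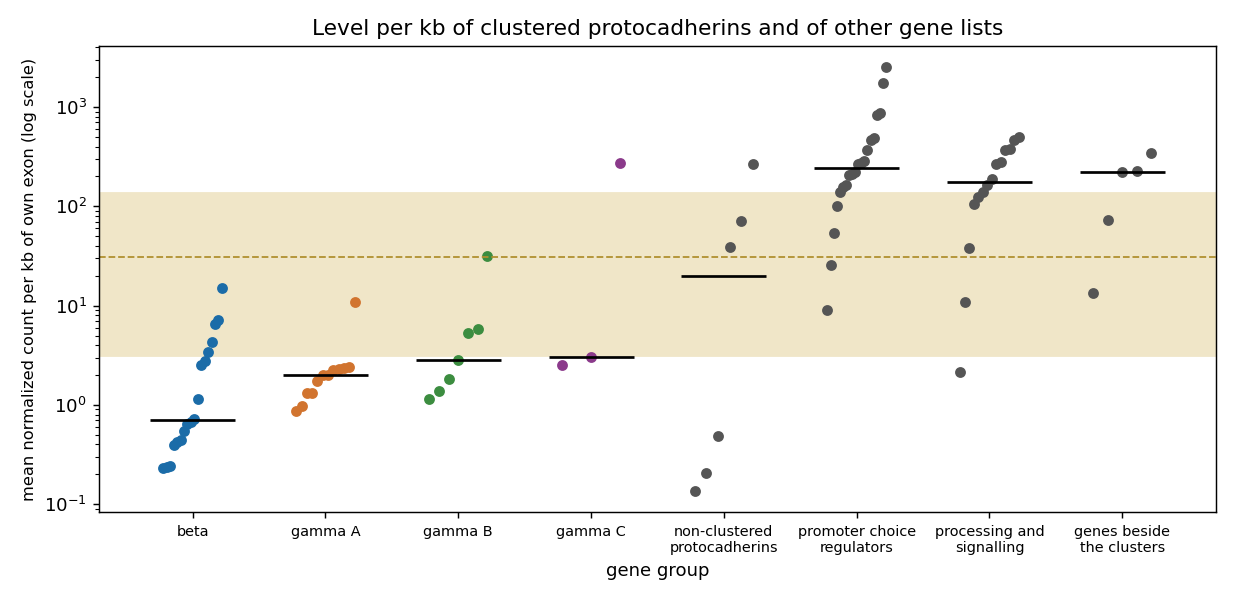
Mean normalized count per kb of own exon (log axis) of the listed genes in each clustered group and in 4 other lists, 1 point a gene, with black bars for the median of each group, a shaded band from the lower to the upper quartile of all genes and a dashed line for their median of 31.1. The medians of the clustered groups lie between 0.699 and 3.04, and those of the regulators and of the processing genes at 243 and 175.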

How the data were processed

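RNA of 3 *Pkd1*-/- and 3 wild type mDCT15 samples was sequenced after depletion of ribosomal RNA, as paired reads of 42 bases. According to the study's methods and the submitters' processing notes, reads were trimmed with Trim Galore 0.4.5, mapped to GRCm39 with STAR 2.7.5a, counted per gene with HTSeq 0.11.0 at default parameters and analysed by the authors with DESeq2 1.22.0 in R 3.5.3. The methods give a cutoff of 5 counts for each gene in each sample, but rows with means down to 0.618 are present. The deposited table gives a signal per gene, the authors' mean normalized count over all samples, which was used as deposited. Its other columns hold the authors' own comparison of the genotypes (log2 fold changes, standard errors, statistics and p-values) and were not used, so the planned tests between genotypes were not run. The table has 0 columns of single samples. The depth of each sample is unknown, and no interval for counting error is given.

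Exon lengths came from GENCODE M39 on GRCm39, a later annotation of the same build, in which 20122 (97.6%) of the gene identifiers and all 40 members were found. Own exon bases are those that no other gene covers on the same strand. Genes with under 200 own bases got no level per kb. Each 42-base window of own bases was searched on both strands of the genome. The study's methods name no strand setting beyond the default parameters of the counting program, which take strand into account. The methods do not say whether the libraries keep strand, and the setting behind the deposited values was not tested. For 11 of the 22 gamma genes an antisense gene covers some own bases. Only if strand was not used would reads there fit both genes and be left unassigned. Percentiles are ranks among all genes with a value. The exon and window counts were tested on simulated data. Python 3.11.15, numpy 2.4.6, pandas 2.3.3 and matplotlib 3.10.9 were used.

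In each group the 3 highest members, the lowest member and every C-type gene were named, and in each other list the highest, the lowest and genes without a row. Other genes, the genes beside the clusters and the boundary in the beta cluster were chosen after their values were seen. The members and lists were chosen with earlier results of these data known. Alternatives were other minimum means, other length scales and subsets of members.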

Additional observations from a re-analysis of the deposited data

How the results depend on the processing

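No paired analysis was possible because the table used here has no values of single samples, and for the same reason no replicate could be left out and no other normalization, count filter or pseudocount could be run. The number of members at a minimum mean of 10 was 15, and it was 37 at a minimum of 1, 24 at 5, 1 at 100 and 4 at 10 per kb of own exon. Of all genes, 66.5% reached a mean of 10, 93.9% reached 1, 73.9% reached 5 and 50.3% reached 100. The group shares of the members' sum (beta 17.2%, gamma A 6.001%, gamma B 9.83% and gamma C 66.9%) became 11.7%, 7.51%, 12.2% and 68.5% per kb of own exon, 17.8%, 6.40%, 10.7% and 65.2% per kb of whole exon, 12.02%, 7.42%, 14.1% and 66.4% per kb of windows found once, and 16.7%, 2.93%, 8.79% and 71.5% over members with a mean of at least 10. They depended most on *Pcdhgc3*. Without it they were 49.7%, 17.3%, 28.3% and 4.72%, and without the C-type genes 52.1%, 18.1% and 29.7% for beta, gamma A and gamma B. The leading gene of each group was the same on every scale. Its share was 38.1%, 31.6%, 30.5% and 31.9% for *Pcdhb22* as deposited, per kb of own exon, of whole exon and of windows found once. In that order it was 32.9%, 35.6%, 35.3% and 35.4% for *Pcdhga5*, 62.8%, 63.1%, 63.5% and 65.1% for *Pcdhgb2*, and 97.5%, 98.0%, 98.0% and 98.0% for *Pcdhgc3*. The rho with place in the beta cluster was 0.77 as deposited, 0.76 on each scale of length and 0.74 over the 8 whose mean reached 5. In the gamma cluster it was 0.60 as deposited, 0.55, 0.61 and 0.53 on these scales in the same order, 0.54 without the C-type genes and 0.21 over the 16 whose mean reached 5, so that the order in the gamma cluster rests in part on its lowest genes. The alternatives by windows found once, without *Pcdhgc3*, at a mean of at least 5 in the order and at 10 per kb were chosen after seeing the data. With no error from replicates, none of these shifts can be set against the spread between samples.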
